A study of Danio rerio with 24 samples.

Results

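The immediate-early transcription factor genes *fosab*, *fosb*, *fosl2*, *jun*, *junba*, *junbb*, *atf3*, *egr1*, *ier2a* and *klf6a* were examined in zebrafish liver. They were chosen by name, and 9 of the 10 had a row among the 19793 genes of the count table, while *atf3* was not analysed here. A filter on low counts asked for 5 or more reads in a share of 0.8 or more of all 18 libraries, and it kept 8 of the 9, among 11489 genes kept in all. The gene left out by the filter was *fosb*.

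Immediate-early genes are transcribed within minutes of a stimulus by factors that are already present in the cell, without new protein synthesis. Fos and Jun proteins pair through leucine zippers into the AP-1 dimers that bind DNA, whereas Egr1 and Klf6 are zinc finger factors. In the mammalian liver this class of genes is known for its early induction after partial hepatectomy and after toxic injury.

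Bulk RNA of dissected livers was sequenced at 7 dpf (days post fertilization), with 40 livers pooled for each library. WT larvae of the AB strain (4 libraries) were compared with *mtm* larvae (6 libraries), which are homozygous for a loss-of-function mutation of *mtm1*, the zebrafish gene of a lipid phosphatase of the endosome. The other groups were WT larvae given 6 times the usual food from 5 to 7 dpf (overfed, 4 libraries) and WT larvae kept in 2% ethanol for 32 hours (EtOH, 4 libraries), which served as models of diet-related steatosis and of alcohol injury. The *mtm* mutation is carried by every cell of the larva and these larvae die early, and whole livers hold other cells beside hepatocytes. A total of 3 of the 6 *mtm* libraries (R1, R2 and R3) are marked as resubmitted, without stating whether they are new pools.

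The libraries held between 8919274 and 20582311 estimated reads in genes. Levels are given as CPM (counts relative to the size of the library, scaled by TMM) and differences as log2 fold changes of edgeR's quasi-likelihood test, with the p adjusted by Benjamini-Hochberg over all 11489 genes. A gene was called at an adjusted p under 0.05. The targeted gene *mtm1* lay at 3.23 to 7.92 CPM in WT and at 0.159 to 2.38 CPM in *mtm* livers, without overlap. EtOH 1, at 0.175 CPM of *mtm1* (3 reads), and EtOH 2, at 2.23 CPM, lay within the *mtm* range, below every WT library. EtOH 1 also had the second fewest genes detected, 13215, after *mtm* R2 with 12957, so the main counts are also given without these libraries. Most hepatocyte markers were abundant in all libraries, although *hnf4a*, a defining one, was listed at 0 in every library, as were the bile duct markers *krt18a.1*, *her6* and *hnf1ba*.

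The members did not move as a block in *mtm* livers. Of the 8 tested, *fosl2* and *klf6a* were upregulated against WT, *fosab* was downregulated, and the remaining 5 were not called. Among all genes kept, 10.1% were called higher and 8.59% lower in this comparison, so that 1 of 8 lower was close to the background and 2 of 8 higher was above it by about 1 gene. The median log2 fold change of the members was 0.40, against 0.01 over all genes. Leaving out WT 1 lowered the count to 1, with *klf6a* as the gene still called, and leaving out *mtm* R2 and EtOH 1 left it at 3. Over all genes the calls went from 2147 to 1491 without WT 1, and to 2634 without *mtm* R2 and EtOH 1.

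In EtOH livers, 3 of the 8 members were upregulated, *fosl2*, *klf6a* and *junba*, and 0 were downregulated. The background was 4.66% of all genes called higher and 2.7% called lower. The members' median was 0.84, against -0.03 over all genes. The count fell to 1 without WT 1, without WT 2 or without EtOH 4, and it was 2 without *mtm* R2 and EtOH 1. Over all genes the calls fell too, from 845 to 428, 490 and 715 in the first 3 of these refits, and to 755 in the last.

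In overfed livers edgeR called 0 members and 0 of all genes, so the background was 0% in each direction. At an unadjusted p under 0.05 there were 493 genes, of which 1 was a member (*klf6a*), and DESeq2 called 28 genes, of which 1 was again *klf6a*. The members' median log2 fold change was -0.16, against -0.04 over all genes. These comparisons share the WT libraries, so a WT library that stands apart enters each of them.

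**Figure D1:**
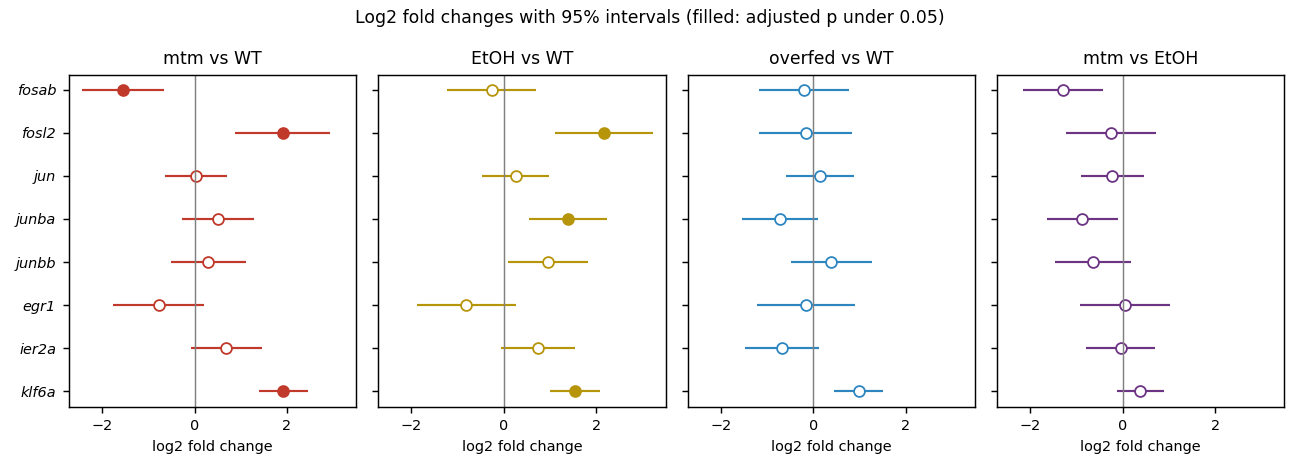
Log2 fold changes of the 8 tested genes with 95% intervals in 4 comparisons, each panel with the fold change on the x axis and 1 row per gene. Filled points were called by edgeR at an adjusted p under 0.05: *fosab*, *fosl2* and *klf6a* in *mtm* livers, *fosl2*, *junba* and *klf6a* in EtOH livers, and 0 genes in overfed livers and between *mtm* and EtOH.

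Among the Fos family genes, *fosab*, the zebrafish counterpart of c-Fos and a classical partner of Jun, was the member that was lower in *mtm* livers. Its level was 328, 350, 179 and 309 CPM in WT 1 to 4. In *mtm* livers the lowest library was at 59.0, the median at 94.2 and the highest at 153 CPM. Every *mtm* library therefore lay below every WT library, which was so for 6.58% of all genes kept. The means were 291 ± 76.7 (SD, n = 4) and 99.9 ± 40.3 CPM (SD, n = 6), and the log2 fold change was -1.55 (SE 0.42, adjusted p = 0.0149). A two-sided exact permutation test of log2 CPM gave p = 0.00952, the smallest that 6 against 4 libraries allow. It takes the 6 *mtm* libraries as separate pools, which the labels do not settle. With same-numbered *mtm* libraries summed, edgeR gave a log2 fold change of -1.61 (adjusted p = 0.0495). Without WT 1 the log2 fold change was -1.45 and the call was lost (adjusted p = 0.071), as it was with the first submission alone (-1.41, adjusted p = 0.123).

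A fall of *fosab* was not called in EtOH or overfed livers against WT, although some libraries of both groups lay below every WT library. EtOH 1 and 2 were at 332 and 333 CPM, within the WT range. EtOH 3 and 4, at 161 and 149 CPM, lay just below it, EtOH 4 within the *mtm* range. The log2 fold change in EtOH livers was -0.26 (95% interval -1.22 to 0.69). Overfed 1 to 4 were at 43.1, 430, 212 and 338 CPM, so that this group held both the lowest and the highest *fosab* level of the experiment. Between *mtm* and EtOH livers the log2 fold change was -1.29 (95% interval -2.16 to -0.42), with an adjusted p of 0.066 that missed the threshold. It was called by DESeq2 (adjusted p = 0.0292) and in edgeR without *mtm* 1 or without overfed 1. An *mtm* difference from EtOH livers in *fosab* was thus at the edge of what these libraries could show.

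*fosl2* encodes Fra-2, a Fos-related antigen that in mammals lacks the strong activation domain of c-Fos and is induced later and for longer. WT 1 to 4 were at 8.12, 18.9, 43.8 and 17.03 CPM. The *mtm* libraries ranged from 46.8 to 119 CPM with a median of 76.3, and EtOH 1 to 4 were at 89.2, 75.6, 67.7 and 127 CPM. Both groups lay wholly above WT, although WT 3 came close to the lowest *mtm* library. The log2 fold change was 1.91 (SE 0.48, adjusted p = 0.0103) in *mtm* and 2.16 (SE 0.50, adjusted p = 0.0136) in EtOH livers.

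The WT libraries themselves differed 5.39-fold in *fosl2*, the widest WT range of the 8 members, and its calls were lost in some refits. Without WT 1 the log2 fold changes were 1.51 in *mtm* (adjusted p = 0.0578) and 1.83 in EtOH livers (adjusted p = 0.0608). The *mtm* call was also lost with only the *mtm* and WT libraries fitted (1.84, adjusted p = 0.0506). The EtOH call was also lost without WT 2 (2.07, adjusted p = 0.0575) and without EtOH 4 (1.70, adjusted p = 0.0673). In overfed livers *fosl2* stood at 10.1, 30.8, 27.7 and 9.10 CPM, within the WT range. Between *mtm* and EtOH livers its log2 fold change was -0.25, with an interval from -1.22 to 0.72 that leaves room for a level more than 2-fold lower in *mtm* livers.

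*fosb*, a further Fos family gene, was close to the limit of detection. It had 9 to 23 reads in the WT libraries, 2 to 36 in *mtm*, 5 to 29 in overfed and 0 to 36 in EtOH libraries, that is at most 3.34 CPM. EtOH 1 held 0 reads of *fosb* and EtOH 2 the most, so the EtOH group spanned the whole range. WT 1 to 4 were at 0.585, 0.931, 1.15 and 1.96 CPM, and 5 of the 6 *mtm* libraries lay below them, at 0.159 to 0.565 CPM, with *mtm* 2 at 1.68 CPM within the WT range. In a fit without the filter, over 19007 genes, the log2 fold change of *fosb* was -1.15 in *mtm* (95% interval -3.14 to 0.83, adjusted p = 0.545), -0.07 in EtOH (-1.87 to 1.74) and -1.03 in overfed livers (-3.16 to 1.09). These values were not called, and their intervals leave room for changes in either direction.

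**Figure D2:**
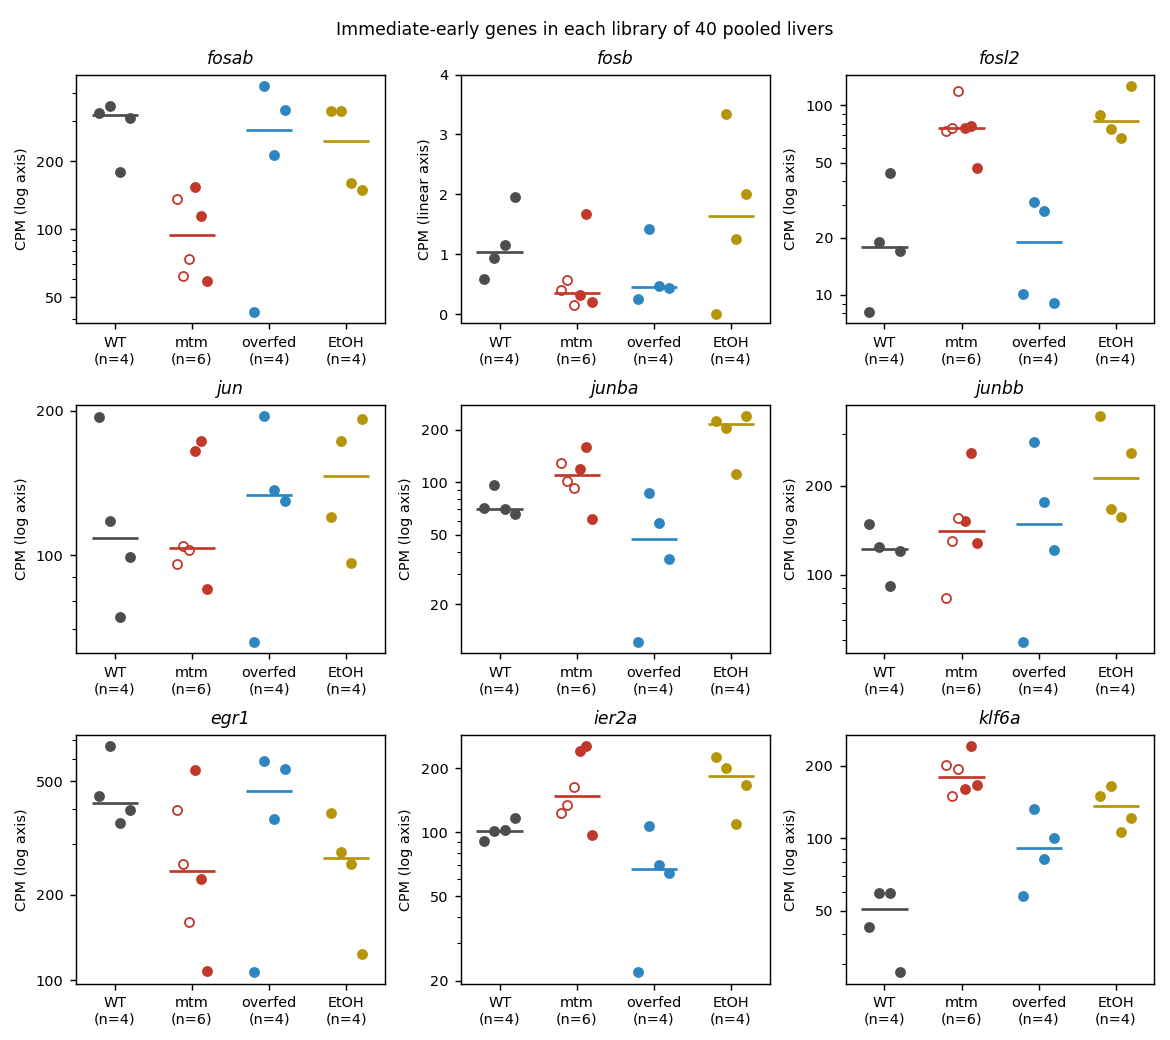
CPM of the 9 genes in each library, 1 panel per gene, with WT, *mtm*, overfed and EtOH libraries along the x axis and the group median as a line; open points are resubmitted *mtm* libraries. The y axis is logarithmic except for *fosb*, and *fosab* sits below WT in all 6 *mtm* libraries while *fosl2* and *klf6a* sit above it.

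The Jun family genes encode the partners of the Fos proteins and can also pair among themselves. *jun*, the counterpart of c-Jun, was at 194, 118, 74.2 and 99.04 CPM in WT 1 to 4, and at 84.9 to 173 CPM in *mtm* livers with a median of 103.4. The *mtm* range lay wholly inside the WT range. The log2 fold change was 0.03 in *mtm* (95% interval -0.64 to 0.70), 0.25 in EtOH (-0.47 to 0.98) and 0.15 in overfed livers (-0.59 to 0.88). These intervals exclude a change of *jun* as large as the 1.91 and 2.16 fitted for *fosl2*.

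*junba*, 1 of the JunB genes of zebrafish, was narrow in WT at 71.2, 96.0, 70.12 and 65.8 CPM. In EtOH 1 to 4 it was at 224, 206, 112 and 240 CPM, all above the WT libraries, with a log2 fold change of 1.38 (SE 0.40, adjusted p = 0.0423). The *mtm* libraries ranged from 61.5 to 160 CPM with a median of 111 and overlapped with WT (log2 fold change 0.51, adjusted p = 0.395). The *junba* call in EtOH livers was the least firm of those against WT. It was lost in 15 of 25 alternatives, among them the fit without the replicate number (adjusted p = 0.0503), and its adjusted p ranged from 0.00652 to 0.169.

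In overfed livers *junba* was at 12.2, 87.1, 58.3 and 36.5 CPM, with 3 of 4 libraries below every WT library and 1 within the WT range. Its log2 fold change there was -0.72 (95% interval -1.55 to 0.11), which was not called. The other JunB gene, *junbb*, was at 149, 124, 91.4 and 120.0 CPM in WT 1 to 4 and at 345, 167, 157 and 258 CPM in EtOH 1 to 4. The EtOH libraries of *junbb* did not overlap with WT, yet the fitted log2 fold change of 0.95 was not called (adjusted p = 0.193). In *mtm* livers *junbb* ran from 83.5 to 258 CPM and enclosed the WT range, with a log2 fold change of 0.30 (95% interval -0.52 to 1.12).

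Counted by range alone, 4 members lay wholly above WT in EtOH livers, namely *fosl2*, *junba*, *junbb* and *klf6a*, where 8.06% of all genes did. In *mtm* livers 2 members lay wholly above WT, where 6.88% of all genes did, and *fosab* lay wholly below, where 6.58% did. In overfed livers 0 members were apart from WT in either direction. Of all genes, 2.37% lay wholly above and 1.97% wholly below WT there, so 0 of 8 was near the background.

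*klf6a* encodes a Krüppel-like zinc finger factor that in mammals is induced in injured liver cells. It gave the firmest difference of the members. WT 1, 2 and 4 were at 42.9, 59.07 and 27.8 CPM, with WT 3 within 1 CPM of WT 2, and the *mtm* libraries ranged from 149 to 241 CPM with a median of 180. The highest WT library was thus far below the lowest *mtm* library. The means were 47.2 ± 15.1 (SD, n = 4) and 186 ± 34.0 CPM (SD, n = 6), and the log2 fold change was 1.92 (SE 0.25, adjusted p = 5.97e-05).

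EtOH 1 to 4 were at 149, 166, 106 and 122 CPM of *klf6a*, again above every WT library, with a log2 fold change of 1.54 (SE 0.26, adjusted p = 0.0014). Both *klf6a* calls held in every refit at an adjusted p under 0.05, although both values lie under a log2 fold change limit of 2, with adjusted p up to 0.00319 for *mtm* and 0.0141 for EtOH. Overfed 1 to 4 were at 57.5, 132, 82.4 and 99.99 CPM, of which 3 lay above the WT libraries and 1 among them. The overfed log2 fold change was 0.98 (95% interval 0.44 to 1.51). Its unadjusted p was 0.00137 and its adjusted p 0.642 in edgeR, against an adjusted p of 0.0487 in DESeq2, so that the call rested on the tool.

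*egr1*, a zinc finger factor induced through serum response factor, was not called in any comparison. It was at 444, 665, 357 and 398 CPM in WT 1 to 4, at 108 to 547 CPM in *mtm* livers with a median of 242, and at 386, 283, 255 and 124 CPM in EtOH 1 to 4. The medians of both groups were below the lowest WT library, with overlapping ranges. The log2 fold changes were -0.77 (95% interval -1.75 to 0.21) in *mtm* and -0.81 (-1.88 to 0.25) in EtOH livers, and -0.16 (-1.22 to 0.91) in overfed livers.

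*ier2a* encodes a nuclear protein of the immediate-early class and had the narrowest range in WT, at 91.2, 101, 102 and 117 CPM. In *mtm* livers it ran from 97.3 to 253 CPM with a median of 148, and in EtOH 1 to 4 it was at 225, 199, 109 and 167 CPM. Most libraries of both groups lay above WT, and 1 in each overlapped with it. The log2 fold changes of 0.69 (adjusted p = 0.222) and 0.73 (adjusted p = 0.295) were not called. Overfed 1 to 4 were at 21.9, 107, 70.23 and 64.4 CPM of *ier2a*, with 3 of 4 below every WT library.

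A direct comparison of *mtm* with EtOH livers called 0 members in edgeR, with 2.87% of all genes called higher and 4.2% lower in *mtm*. At an unadjusted p under 0.05 there were 2 members, *fosab* and *junba*, both lower in *mtm*, and DESeq2 called 1, *fosab*. Of all 11489 genes, 2641 had an unadjusted p under 0.05 and DESeq2 called 1720, so both member counts were near the background. For *junba* the log2 fold change was -0.87 (95% interval -1.65 to -0.10, adjusted p = 0.158). A difference between the responses of *mtm* and EtOH livers was therefore not shown by the main edgeR fit for any of the 8 genes.

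Against overfed livers, a group that shares no library with WT, 4 members were higher in *mtm* and 1 was lower. These were *fosl2* (log2 fold change 2.07, adjusted p = 0.00389), *ier2a* (1.37, 0.0128), *junba* (1.23, 0.0246) and *klf6a* (0.94, 0.00953), with *fosab* lower (-1.35, 0.0309). The *fosab* call was lost in 13 of 28 alternatives, with an adjusted p of up to 0.2195, among them the fits without any 1 of *mtm* R1, R2, R3, 2 and 3 or of overfed 2, 3 and 4. Its ranges overlapped, and the two-sided exact permutation test of log2 CPM gave p = 0.162. The background was 13.8% of all genes called higher and 11.8% lower. EtOH livers had 3 members higher than overfed livers and 0 lower, with a background of 8.26% and 5.09%, namely *fosl2* (2.32, adjusted p = 0.00556), *junba* (2.11, 0.00274) and *ier2a* (1.41, 0.0233). For 7 of the 8 members, all but *fosl2*, the overfed libraries had the widest range of the groups. Without overfed 1 the *mtm* count fell from 5 to 3, with *junba* and *klf6a* lost. It was also 3 without overfed 4. Over all genes the calls fell from 2935 to 2289 without overfed 1 and to 2586 without overfed 4.

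For 7 of the 8 members the resubmitted *mtm* libraries and those of the first submission gave the same direction against WT. The exception was *jun*, at 0.22 in the first and -0.19 in the resubmitted libraries, neither of them called. For *klf6a* the log2 fold change against WT was 1.94 in the first and 1.90 in the resubmitted libraries, both called. For *fosl2* it was 1.67 (adjusted p = 0.053) and 2.11 (adjusted p = 0.0149), and for *fosab* -1.41 (adjusted p = 0.0983) and -1.71 (adjusted p = 0.0403), each with 3 *mtm* libraries in a fit of all libraries with the submissions as separate groups. Between the submissions 0 of the 11489 genes were called.

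Since *fosl2* and *fosab* moved in opposite directions in *mtm* livers, their reads were set against each other within each library, a ratio chosen after the values were seen. WT 1 to 4 held 0.0248, 0.0541, 0.244 and 0.0552 *fosl2* reads per *fosab* read. The *mtm* libraries held 0.498 to 1.61 with a median of 0.737. EtOH 1 to 4 held 0.268, 0.227, 0.422 and 0.853, and overfed 1 to 4 held 0.234, 0.0715, 0.131 and 0.0269. The *mtm* libraries were all above the WT and overfed libraries, and they overlapped with EtOH. The separation from WT was fixed beforehand, since *fosl2* lay wholly above and *fosab* wholly below WT in *mtm* livers. It therefore adds no evidence beyond those ranges. The ratio is in reads and not per length of transcript, so it compares libraries and does not tell which transcript was the more abundant.

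**Figure D3:**
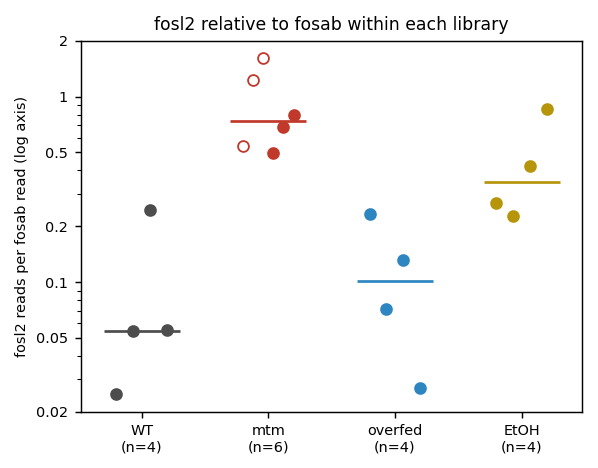
Reads of *fosl2* per read of *fosab* in each library on a logarithmic y axis, with the 4 groups on the x axis, group medians as lines and resubmitted *mtm* libraries as open points. The *mtm* libraries lie between 0.498 and 1.61, above the highest WT library at 0.244, as follows from the separate ranges of both genes.

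Within groups, the members varied together from library to library, less so without overfed 1. After subtracting the mean of each group from log2 CPM, all 28 pairs of the 8 genes were positively correlated over the 18 libraries, with Pearson r from 0.05 to 0.88 and a median of 0.58. The highest were *junba* with *ier2a* (0.88) and *fosab* with *egr1* (0.88). The lowest all involved *fosl2*, which had r of 0.05 with *jun*, 0.11 with *fosab* and 0.11 with *egr1*. Set against the mean profile of the other members, *junba* had r of 0.95 and *ier2a* of 0.93, while *fosl2* had 0.34. These values are a description, since the points of a library share its depth and its scaling. The same r over pairs of other genes was not computed.

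Without overfed 1 the median r was 0.37 and 24 of the 28 pairs were positive, and without overfed 1 and 2 it was 0.32 with 24 positive, a choice made after the data were seen. Overfed 1 was the lowest of its group for 7 of the 8 members, with a median deviation of -1.30 on the log2 scale, while the median over all genes was 0.03 in that library. Overfed 2 was the highest of its group for 8 of 8 members. These were the deepest libraries of the experiment, at 19064479 and 20582311 reads. The part of depth in these deviations was not tested. In the other groups *mtm* 3 and EtOH 3 were each the lowest for 6 of 8 members, and *mtm* 2 was the highest for 5.

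**Figure D4:**
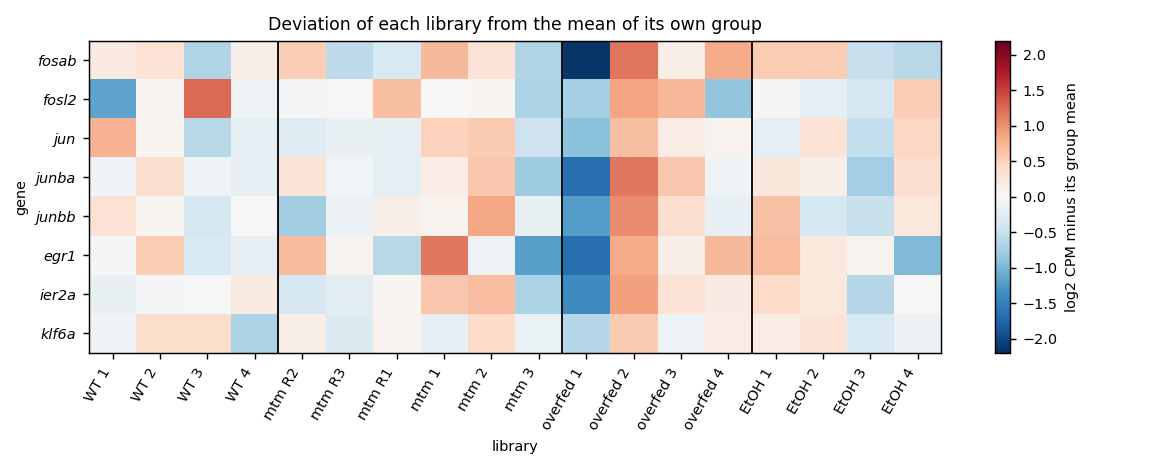
Deviation of log2 CPM from the mean of the library's own group, with the 18 libraries on the x axis and the 8 genes on the y axis (red above, blue below the group mean). Overfed 1 is below its group mean for all 8 genes and overfed 2 above it for all 8.

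Genes outside the members were ranked by the likeness of their within-group pattern to the members' mean profile. By Pearson r over the 18 libraries, the closest was *btg2*, an antiproliferative immediate-early gene (0.96), followed by *sik1*, a salt-inducible kinase (0.91), *tcima* (0.91), *zgc:162730* (0.88) and *si:dkey-79d12.5* (0.84). Then came *sgk1*, a serum- and glucocorticoid-regulated kinase (0.81), *egr2a* (0.81), *cebpb* (0.81) and *fosl1a*, the gene of Fra-1 (0.80). This ranking was not repeated without overfed 1, where the median r among the members fell from 0.58 to 0.37. For *btg2* and *sik1* the overfed libraries had the widest range of the groups. How far the ranking rests on overfed 1 was not tested. *btg2* was not called against WT, with log2 fold changes of -0.55 in *mtm* (adjusted p = 0.482) and 0.22 in EtOH livers (adjusted p = 0.852). *fosl1a* was called in EtOH livers (2.91, adjusted p = 0.00929) and missed the threshold in *mtm* livers (1.66, adjusted p = 0.0583). Called higher in both *mtm* and EtOH livers were *tcima* (1.90 and 2.50, adjusted p = 0.00656 and 0.00335) and *cebpb* (1.45 and 1.56, adjusted p = 0.00422 and 0.0095).

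Other immediate-early genes, 46 of which passed the filter, were called more often than the background in both *mtm* and EtOH livers. In *mtm* livers 18 were higher and 2 lower, with a median log2 fold change of 0.92, and in EtOH livers 21 were higher and 1 lower, with a median of 1.28. Without WT 1 or without EtOH 1 the EtOH count was 13 in all, and without WT 2 it was 14. Over all genes the EtOH calls were 428, 494 and 490 in these refits, against 845 in the main fit. *gadd45bb*, a stress-inducible growth-arrest gene, was at 3.52 to 7.07 CPM in WT, 46.2 to 74.6 in *mtm* and 64.4 to 116 in EtOH livers. Its log2 fold changes were 3.37 and 4.10 (adjusted p = 3.76e-07 and 1.58e-07). *socs3a*, a feedback inhibitor of cytokine signaling, rose by 4.48 and 3.94 on the same scale (adjusted p = 3.48e-05 and 0.00027). In overfed livers 0 of the 46 genes were called in edgeR and 1 in DESeq2, with a median of -0.28.

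Of 31 other AP-1 and CREB/ATF family genes, 9 were higher and 3 lower in *mtm* livers, and 6 were higher and 1 lower in EtOH livers. Over all genes 10.1% were higher and 8.59% lower in *mtm*, and 4.66% and 2.7% in EtOH livers. The lower counts were thus near the background. With only the *mtm* and WT libraries fitted, 7 were called in *mtm* livers. *maff*, a small Maf protein that pairs with other leucine zipper factors, rose in both (log2 fold changes 2.22 and 2.42, adjusted p = 0.00015 and 0.000326). *mafbb*, a large Maf gene, also rose in both (3.54 and 2.52, adjusted p = 0.000194 and 0.0056). *creb3l3a*, a liver-enriched membrane-bound factor of the CREB family, fell by 2.63 on the log2 scale in EtOH livers (adjusted p = 0.00373). It was at 41.1 to 81.1 CPM in WT, 4.13 to 17.5 in EtOH and 8.08 to 25.4 in *mtm* livers. Both groups thus lay below every WT library. *maff* and *cebpb* stand on this list and on the immediate-early list. *cebpb* and *atf4b* of this list also stand on the list of ATF4 stress genes.

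Upstream of the members, 22 genes of MAP kinase and serum response signaling were tested, of which 0 were higher and 1 was lower in each of *mtm* and EtOH livers. Over all genes 10.1% were higher and 8.59% lower in *mtm*, and 4.66% and 2.7% in EtOH livers, so 1 of 22 lower was near the background. The gene called was the same in both groups. This gene was *map2k6*, a kinase that activates p38, with log2 fold changes of -1.93 and -1.89 (adjusted p = 4.44e-05 and 0.000492). Transcript levels do not report the activity of kinases.

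Downstream, 20 genes known as AP-1 targets were tested. In *mtm* livers 12 were higher and 0 lower, with a median log2 fold change of 1.66, and in EtOH livers 11 were higher and 0 lower, with a median of 1.48. The EtOH count was 7 without WT 1, where the calls over all genes fell to 428. The matrix metalloproteinase gene *mmp9*, which is also a neutrophil marker, rose by 4.59 and 2.88 (adjusted p = 9.99e-06 and 0.00074), and *timp2b*, a metalloproteinase inhibitor, by 4.36 and 2.64 (adjusted p = 2.48e-05 and 0.00267). *hmox1a*, heme oxygenase, was at 17.7 to 46.5 CPM in WT and at 224 to 460.3 CPM in *mtm* livers (log2 fold change 3.88, adjusted p = 0.000254). In EtOH livers *hmox1a* was at 154 to 501 CPM, also above every WT library. The autophagy receptor gene *sqstm1* rose in EtOH livers by 1.77 (adjusted p = 0.00165). Its ranges were 32.5 to 74.4 CPM in WT, 126 to 276 in EtOH and 123.5 to 288.5 in *mtm* livers, so both groups lay wholly above WT. These genes also answer to other factors, and the counts say nothing of AP-1 binding.

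**Figure D5:**
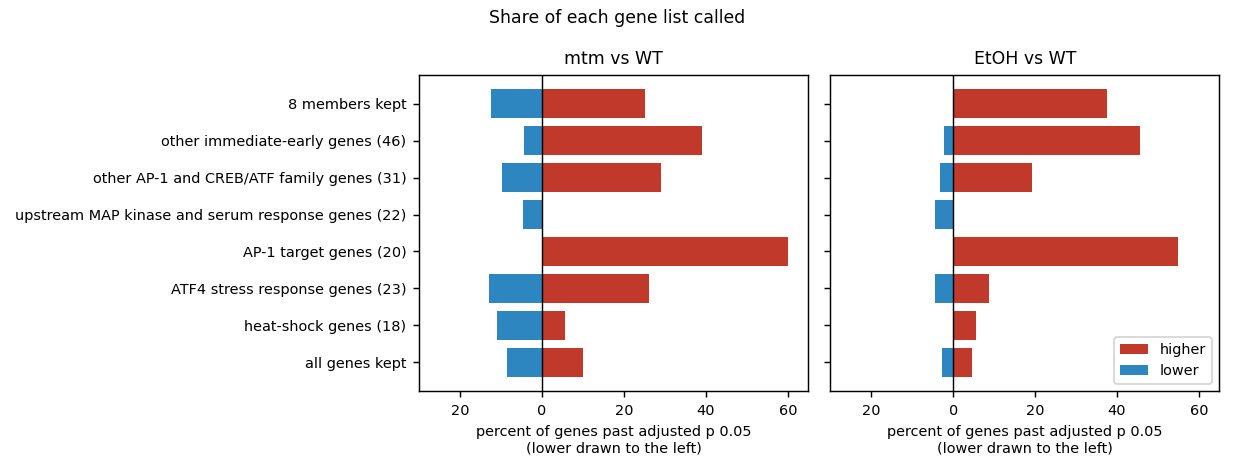
Percent of tested genes called higher (red, to the right) or lower (blue, drawn to the left) in *mtm* and EtOH livers against WT, for the 8 members, for each gene list with its number of tested genes, and for all genes kept. Of the AP-1 target genes, 12 of 20 were higher in *mtm* and 11 of 20 in EtOH livers, while 10.1% and 4.66% of all genes were.

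Genes of other stress pathways were counted in the same way, beside the background of 10.1% higher and 8.59% lower in *mtm* and of 4.66% and 2.7% in EtOH livers. Of 23 genes of the ATF4 stress response, 6 were higher and 3 lower in *mtm* livers, and 2 were higher and 1 lower in EtOH livers. *atf4b*, which encodes the ATF4 factor itself, rose in *mtm* livers by 1.46 (adjusted p = 0.000256). It was not called in EtOH livers, although its 129 to 182 CPM there lay above the WT range of 81.4 to 103.6 CPM. *nupr1b* fell by 2.31 in both *mtm* and EtOH livers (adjusted p = 0.000179 and 0.0015). The chaperone gene *hspa5* fell by 2.04 in *mtm* livers (adjusted p = 0.00106). *ppp1r15b*, a phosphatase subunit that reverses the translation block, rose in EtOH livers by 4.27 (adjusted p = 0.000518). Of 18 heat-shock genes, 1 was higher in each of the groups (*ubc*, 2.08 in *mtm* and 1.24 in EtOH livers) and 2 were lower in *mtm* livers (*hspd1* and *hspb8*). The ranges of *hspd1* and *hspb8* in *mtm* livers and of *ubc* in EtOH livers overlapped with WT. In *mtm* livers *ubc* lay wholly above WT.

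Markers of several other cell types moved with the groups. Of 10 erythrocyte and 14 exocrine pancreas markers, 0 were called in *mtm* or EtOH livers against WT. The median log2 fold change of the erythrocyte markers was -1.23 in *mtm* and -0.56 in EtOH livers. For the pancreas markers it was -1.53 and 0.36. In bulk samples, fewer cells of a type and less RNA per cell cannot be told apart. Of 7 tested macrophage markers, 7 were higher in *mtm* and 3 in EtOH livers. Their summed level over 13 markers was 91.3 to 141 CPM in WT, 307 to 616 in *mtm*, 106 to 143 in overfed and 144 to 244 in EtOH livers. Of 8 neutrophil markers, 7 were higher in *mtm* and 3 in EtOH livers, and of 6 general leukocyte markers 5 and 2. The neutrophil sums overlapped, at 409 to 8335 CPM in WT and 905 to 5048 in *mtm* livers. WT 4, *mtm* 1 and EtOH 3 had the highest neutrophil sums of their groups. They also had the highest exocrine pancreas sums, at 71540, 21770 and 32160 CPM. In overfed livers the highest sums were in different libraries. Whether pancreatic RNA enters the neutrophil sums was not tested. The leukocyte markers summed to 45.3 to 71.8 CPM in WT, 237 to 433 in *mtm*, 43.4 to 63.0 in overfed and 97.5 to 144 in EtOH livers. Of 6 bile duct markers, 5 were higher in *mtm* and 2 in EtOH livers, with sums of 1089 to 2457 CPM in WT, 2837 to 6568 in *mtm* and 3131 to 4184 in EtOH livers. Of 15 endothelial markers 4 and 2 were higher, and of 11 stellate cell markers 4 and 1. The endothelial sums overlapped, at 166.5 to 897 CPM in WT, 370 to 646 in *mtm* and 467 to 1058 in EtOH livers. The stellate cell sums did too, at 149 to 571, 221 to 681 and 262 to 559 CPM. WT 4 had the highest WT sum in both. Of 14 hepatocyte markers, 1 was higher and 5 lower in *mtm* livers, and 1 was higher and 1 lower in EtOH livers. The hepatocyte markers summed to 116700 to 211400 CPM in WT, 152000 to 200800 in overfed and 69050 to 110400 in EtOH livers. In *mtm* 1 they summed to 139500 CPM, within the WT range, and in the other 5 *mtm* libraries to 31830 to 57350 CPM, below it. A large part of these sums was *apoa2*, with means of 126200 CPM in WT and 22350 in *mtm* livers. The median log2 fold change of the 14 tested hepatocyte markers was -0.71 in *mtm*, -0.17 in EtOH and -0.20 in overfed livers. Of 12 skeletal muscle markers, 1 was higher in EtOH and 0 in *mtm* livers. They summed to 92.2 to 548 CPM in WT, 22.4 to 1783 in *mtm* and 30.1 to 814 in overfed livers. EtOH 2 stood apart at 8365 CPM from the other 3 EtOH libraries at 579 to 737, and every EtOH sum lay above the WT range. The median log2 fold change of the 12 muscle markers was 2.47 in EtOH, -0.09 in *mtm* and -0.33 in overfed livers. Of 8 intestinal markers, 1 was higher and 2 lower in *mtm* livers, and 0 were higher and 1 lower in EtOH livers. Their sums were 4093 to 6224 CPM in WT, 209 to 1037 in *mtm*, 1422 to 1796 in EtOH and 6908 to 8405 in overfed livers. Most of these sums was *apoa4b.1*, with means of 4559 CPM in WT, 347.5 in *mtm*, 1213 in EtOH and 7653 in overfed livers. The median log2 fold change of the 8 tested markers was -1.16 in *mtm*, 0.05 in EtOH and -1.75 in overfed livers. The EtOH and overfed sums thus did not follow the typical marker. In the same *mtm* libraries *fosl2* and *klf6a* were higher and *fosab* was lower, and in the EtOH libraries *fosl2*, *klf6a* and *junba* were higher. The part of these cell types in the members' differences was not tested.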

How the data were processed

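Libraries of 40 pooled livers were made with SMART-Seq v4 and Nextera XT, without molecular identifiers. According to the labels the authors checked reads with FastQC 0.11.09, trimmed them with Trim Galore 0.6.6 and estimated counts with Salmon against GRCz11. The deposited values are expected counts for each gene, rounded to integers and not normalized. Columns were matched to groups by their sample labels. The table of the *abcb11b* experiment was not used here.

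The filter required 5 or more reads in a share of 0.8 or more of all libraries. All 18 libraries entered 1 edgeR 4.0.16 quasi-likelihood fit (R 4.3.3, TMM, group plus replicate number, as the authors used replicate as a covariate in DESeq2 1.24.0), tested beforehand on simulated data. CPM are TMM-scaled, and log2 CPM used a prior count of 2. The SE was taken as the absolute log2 fold change divided by the square root of the F statistic of its test. The 95% intervals were built from this SE with a t quantile, before adjustment for multiple tests. Same-numbered libraries of different groups had a median correlation of -0.003 over their deviations from the group means, and 7 of 30 pairs exceeded 0.1. For different-numbered libraries the median was 0.002, and 14 of 90 pairs exceeded 0.1. No general pairing by number was thus seen, and pairing by single numbers was not tested. The p-values measure the spread between pools, which may be technical for the resubmitted libraries. No 2 libraries were alike beyond 534 identical counts.

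Alternatives were DESeq2 1.42.0, its size factors, other filters, no replicate block, only the compared groups, each *mtm* submission, same-numbered *mtm* libraries summed, each library left out, a log2 fold change limit of 2 and, added after the data were seen, leaving out *mtm* R2 and EtOH 1, and correlations without overfed libraries. *fosb* was fitted without the filter, also after the data were seen. The members, lists and tests were chosen with earlier results of these data known. Named are all members, *mtm1*, up to 3 called genes of the smallest adjusted p per list and comparison, in part, and the 10 genes most like the members' mean profile, of which 1 is not reported here; *fosl1a* and *btg2* are among these. Permutation tests used Python 3.11.15 with scipy 1.17.1, numpy 2.4.6 and pandas 2.3.3, and figures matplotlib 3.10.9. Sequences and coordinates are not given.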

Additional observations from a re-analysis of the deposited data

How the results depend on the processing

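Over 6 comparisons, 48 values of members were recomputed in 1272 alternatives. The sign turned in 52 of these, in 0 of which the value was called in the main or the alternative fit. Leaving out 1 library, the number of members called ranged from 1 to 3 for *mtm* against WT, 1 to 3 for EtOH against WT, 0 to 1 for *mtm* against EtOH and 3 to 5 for *mtm* against overfed. With a log2 fold change limit of 2 it was 0, 1 and 1 for *mtm* against WT, EtOH against WT and *mtm* against overfed. The count over all genes at this limit was not computed. DESeq2 called 1 member for overfed against WT and 1 for *mtm* against EtOH. For *mtm* against overfed the members called were 2 with only these groups fitted and 3 with the first submission. They were 2 with the resubmitted and 3 with same-numbered libraries summed. Over all genes these refits gave 2109, 2420, 2791 and 3115 calls, against 2935 in the main fit.

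Without the replicate block, the members called numbered 3 for *mtm* and 2 for EtOH against WT (*junba* lost, adjusted p = 0.0503). They numbered 0 for overfed against WT, 0 for *mtm* against EtOH, 5 for *mtm* against overfed and 3 for EtOH against overfed. Over all genes this fit gave 2256, 892, 0, 915, 2893 and 1564 calls, in the same order.

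The turned signs were of small values. For *mtm* against WT, *jun* was at -0.00112 with DESeq2 size factors, -0.00117 in DESeq2, -0.00493 without the replicate block, -0.026 with only these groups and -0.185 with the resubmitted libraries. For *mtm* against EtOH, fitting only these groups gave 0.017 for *fosl2* and -0.16 for *egr1*, the resubmitted libraries 0.012 and -0.078, summing gave -0.067 for *egr1*, and *ier2a* was at 0.16 in the first submission and 0.40 without *mtm* R2 and EtOH 1. For *mtm* against overfed, the first submission gave 0.048 for *jun* and 0.12 for *junbb*, which was at 0.19 without *mtm* R2 and EtOH 1. For EtOH against overfed, *fosab* was at 0.085 with only these groups.

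With 1 library left out, ranges that crossed 0 were as follows. For *mtm* against WT, *jun* ran from -0.10 to 0.47. For overfed against WT, *fosab* ran from -0.48 to 0.27, *fosl2* from -0.53 to 0.46, *jun* from -0.071 to 0.50 and *egr1* from -0.58 to 0.28. For *mtm* against EtOH, *fosl2* ran from -0.49 to 0.026, *egr1* from -0.36 to 0.34 and *ier2a* from -0.22 to 0.21. For *mtm* against overfed, *jun* ran from -0.41 to 0.13 and *junbb* from -0.43 to 0.33. For EtOH against overfed, *fosab* ran from -0.57 to 0.23 and *jun* from -0.18 to 0.32. Whether the cause lies in single libraries was not tested.

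Over all genes, *mtm* against WT gave 2147 calls, from 1441 to 2435 with 1 library left out and up to 2865 in DESeq2. For *mtm* against overfed it was 2935, from 2030 to 3292 with 1 left out and up to 3690 in DESeq2. EtOH against WT gave 845 calls, from 428 to 1168 with 1 library left out and up to 1558 in DESeq2. For *mtm* against EtOH it was 812, from 330 to 1300 with 1 left out, 47 with only these groups and 1720 in DESeq2. For EtOH against overfed it was 1534, from 933 to 1988 with 1 left out and 2403 with same-numbered *mtm* libraries summed. For overfed against WT it was 0, and at most 28, in DESeq2.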
